A study of Homo sapiens with 16 samples.

Results

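The 8 genes described here handle iron in human cells: ACO1 and IREB2, which encode the iron regulatory proteins, TFRC and SLC11A2 (uptake), FTH1 and FTL (storage), SLC40A1 (export) and HMOX1 (release from heme). They were taken by symbol from 60612 genes in the deposited table, where each of the 8 symbols has 1 row and passes the filter on low counts. ACO1 was chosen by its fold change after MPS1i in SCR and MAVS cells, so its values in those groups are a description with no test, and it was tested only in contrasts without those libraries. RNA was sequenced in NCI-H1944, an established human lung adenocarcinoma line, in 8 groups of 2 libraries. There were 4 genotypes: a line labelled STING knockout (STING), a line labelled MAVS knockout (MAVS), a line labelled as lacking both (DKO), and a line with the control guide SCR, labelled wild type. Each was sampled after MPS1i or after DMSO. The drug written as MPS1i, BAY-1217389, blocks the spindle checkpoint kinase MPS1. It was given at 100 nM for 48 h and removed, after which the cells grew for 24 h, and DMSO is the vehicle. STING relays the detection of DNA in the cytosol and MAVS that of RNA, and both switch on interferon genes. The labels do not say whether a line is 1 clone or a pool, nor whether a group's 2 libraries came from separate cultures. The p-values therefore rest on a spread between libraries that may be technical.

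Iron supply is set largely after transcription. When iron is scarce, the proteins IRP1 (from ACO1) and IRP2 (from IREB2) bind hairpins called iron responsive elements in messenger RNAs. Bound in a 3′ UTR, as in TFRC, they protect the transcript from decay, and bound in a 5′ UTR, as in the ferritin and ferroportin messages, they block its translation. With iron in supply, IRP1 holds an iron-sulfur cluster and works as the aconitase of the cytosol, while IRP2 is degraded through FBXL5. Messenger RNA levels, which are all that was measured here, are therefore only one layer of this system.

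The hairpins are shown because they are the feature that joins the regulators to their targets. They were searched in 83092 coding transcripts of 19644 genes (GENCODE 29, GRCh38) as a C, any 5 bases, CAGTG and 1 more base, where the first 5 bases pair with those after the 6-base loop (A-T, G-C or G-T pairs), on the transcript's own strand. Of the 8 genes, 4 held a match, each in a UTR, against 168 of all genes (0.855%) with a match in a UTR. These 4 were known carriers of the element before the search, so the comparison is no test of enrichment. The SLC40A1 match lay in 1 of 5 coding transcripts, those of TFRC in 3 of 4, that of FTH1 in 7 of 8 and that of FTL in 1 of 1. Capitals mark the unpaired C and the loop, and each sequence runs 5′ to 3′ on the transcript.
TFRC 3′ UTR, chr3:196050978-196051007, minus strand: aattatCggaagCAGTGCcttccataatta
TFRC 3′ UTR, chr3:196050574-196050603, minus strand: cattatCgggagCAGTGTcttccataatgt
TFRC 3′ UTR, chr3:196050509-196050538, minus strand: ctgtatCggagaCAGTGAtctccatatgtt
TFRC 3′ UTR, chr3:196050462-196050491, minus strand: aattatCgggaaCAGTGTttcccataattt
FTH1 5′ UTR, chr11:61967573-61967602, minus strand: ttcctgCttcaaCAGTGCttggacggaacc
FTL 5′ UTR, chr19:48965335-48965364, plus strand: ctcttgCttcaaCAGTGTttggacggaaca
SLC40A1 5′ UTR, chr2:189580660-189580689, minus strand: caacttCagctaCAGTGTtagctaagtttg
The letters around the loop are nearly shared between FTH1 and FTL and between the TFRC copies, while the stem of SLC40A1 is its own. No coding transcript of ACO1, IREB2, SLC11A2 or HMOX1 held the searched letters together with the 5 pairs. A gene without such a match may still carry the element, since the search says nothing about its other forms in any of the 8 genes.

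Libraries held between 19893784 and 49769938 counts. STING1 averaged 3.74 and 4.86 CPM (counts scaled to a common library total) in the STING and DKO lines under DMSO, against 8.27 CPM in SCR, while the MAVS transcript averaged 195 and 215 CPM in the MAVS and DKO lines, against 186 CPM in SCR, and so does not check those labels. Of 12 lung epithelium markers 7 averaged at least 1 CPM, led by KRT8 at 1758 CPM, while the lung lineage genes NKX2-1, SFTPB and SFTPC stayed under 0.1 CPM in every library. That list summed to between 2920 and 3656 CPM after MPS1i and between 2554 and 2825 CPM after DMSO. The sum over 12 red cell genes, which also use much iron, was 0.568 to 1.5 CPM after MPS1i and 0.0867 to 0.426 CPM after DMSO, and ALAS2, GYPB and HBG1 were at 0 in all 16 libraries. The sum over 12 immune markers was 2.38 to 3.57 CPM after MPS1i and 1.44 to 2.23 CPM after DMSO, with CD3D and NKG7 at 0 in all libraries. That over 12 fibroblast and endothelial markers was 42.2 to 56.9 CPM after MPS1i and 30.3 to 48.4 CPM after DMSO, led by DCN. The part these shifts have in the results was not tested. In bulk RNA, fewer cells of a kind and less RNA per cell cannot be told apart.

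Per kilobase of exon, the ferritin subunit messages were by far the most abundant of the 8. Averaged over the 16 libraries, FTL stood at 3484 and FTH1 at 2241 CPM per kilobase, followed by TFRC at 75.2, HMOX1 at 41.6, IREB2 at 18.1, ACO1 at 11.7, SLC11A2 at 5.82 and SLC40A1 at 5.65 CPM per kilobase. All values below are CPM of a single gene and are compared only between groups.

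**Figure D1:**
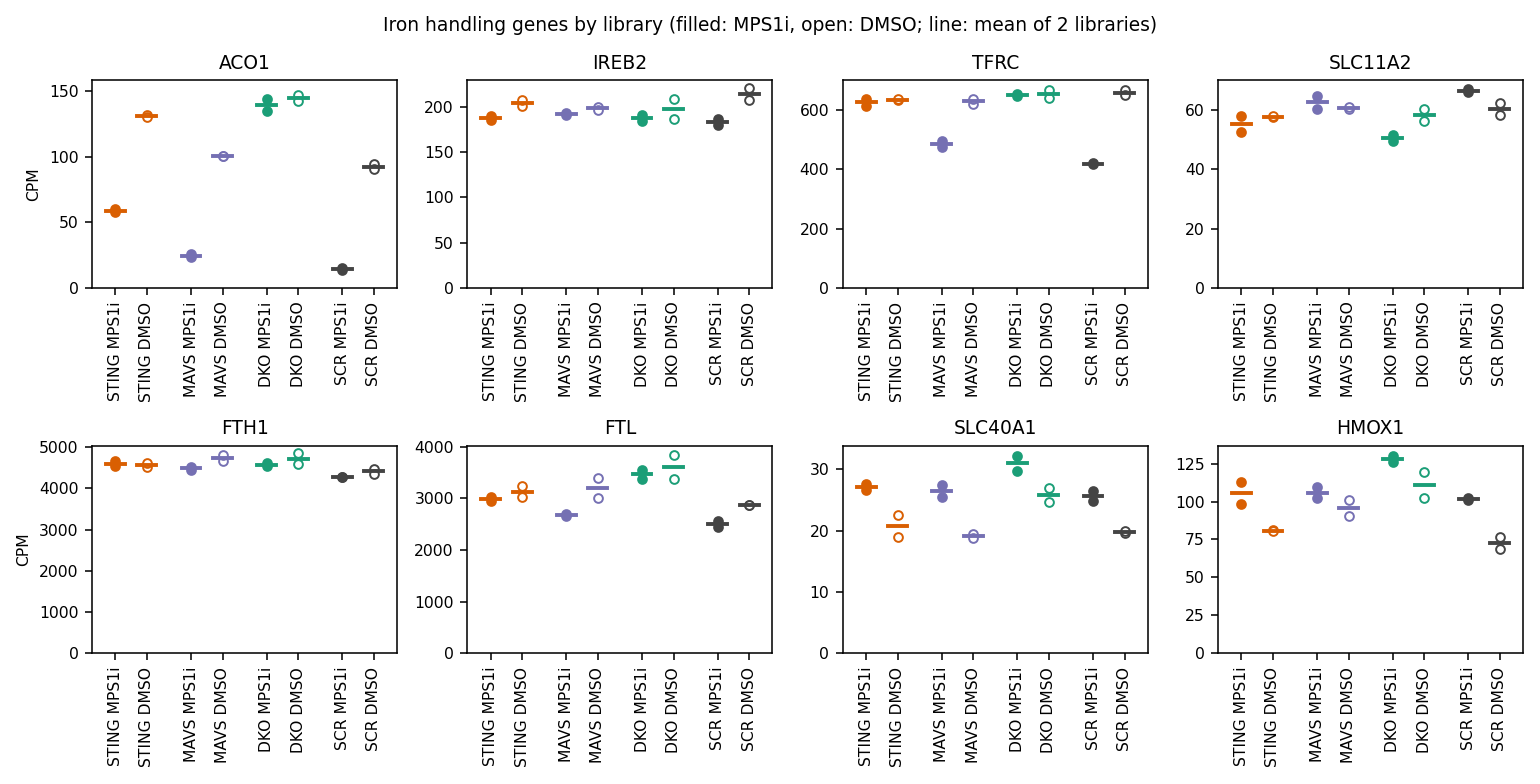
CPM of the 8 iron handling genes in each of the 16 libraries, with MPS1i filled, DMSO open and a line at the mean of 2 libraries; each panel has its own axis from 0. ACO1 is lowest in SCR MPS1i at 14.0 and 14.8 CPM and stays at 134.8 to 146.8 CPM in all 4 DKO libraries, and TFRC is lowest in SCR MPS1i at 419 and 416 CPM.

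After MPS1i the transcripts of the iron genes other than ACO1 had log2 fold changes between -0.66 and 0.49, and different sets of them were called in each line. Calls were made with edgeR's quasi-likelihood test where p, adjusted by Benjamini-Hochberg over 17950 genes, was under 0.05. In STING cells 2 of the other 7 genes were higher and 0 lower, where 29.4% of all genes were called in either direction, 15.5% higher and 13.9% lower. In MAVS cells 1 was higher and 2 were lower (33.4% of all genes called, 17.1% higher and 16.3% lower). In DKO cells 1 was higher and 1 lower (14.8% called, 6.53% higher and 8.22% lower). In SCR cells 3 were higher and 3 lower (50.0% called, 26.0% higher and 24.0% lower). The medians of their log2 fold changes were -0.02 in STING, -0.04 in MAVS, -0.04 in DKO and -0.05 in SCR, against 0.00, 0.02, 0.00 and 0.03 over all genes tested in those 4 lines. Whether libraries of the treatments overlapped is given below as a description of levels. The share of all genes without overlap was not computed, and no call rests on it.

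ACO1 encodes the cytosolic aconitase that doubles as IRP1, on chr9:32384603-32454769, plus strand. Its level was 57.6 and 60.1 CPM after MPS1i and 131.6 and 130.0 CPM after DMSO in STING cells. In MAVS cells it was 25.7 and 23.2 CPM after MPS1i and 100.4 and 100.7 CPM after DMSO. It was 143.8 and 134.8 CPM after MPS1i and 146.8 and 142.3 CPM after DMSO in DKO cells. In SCR cells it was 14.0 and 14.8 CPM after MPS1i and 94.2 and 90.4 CPM after DMSO. Libraries after MPS1i and after DMSO did not overlap in STING, MAVS and SCR cells, and overlapped in DKO cells. ACO1 was 6.40-fold lower after MPS1i in SCR cells and 4.12-fold lower in MAVS cells, as a description. It was 2.22-fold lower in STING cells (log2 fold change -1.15 ± 0.06, standard error, adjusted p = 1.2e-14, edgeR's quasi-likelihood test). In DKO cells the log2 fold change was -0.05 ± 0.05 (edgeR adjusted p = 0.59). The treatment effect differed between DKO and STING cells by 1.10 ± 0.08 on the log2 scale (edgeR adjusted p of the interaction = 5.2e-11), where 4.72% of all genes were called for the same difference.

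From low to high, the 8 group means of ACO1 were SCR MPS1i at 14.4 ± 0.562 CPM (SD, n = 2 each here and in all groups), MAVS MPS1i at 24.5 ± 1.78, STING MPS1i at 58.9 ± 1.77, SCR DMSO at 92.3 ± 2.72, MAVS DMSO at 100.6 ± 0.200, STING DMSO at 130.8 ± 1.16, DKO MPS1i at 139.3 ± 6.38 and DKO DMSO at 144.6 ± 3.18 CPM. Of neighbours in that order, only the DKO groups had overlapping libraries. Under DMSO, ACO1 already stood at a log2 difference from SCR of 0.50 in STING, 0.12 in MAVS and 0.65 in DKO cells. After MPS1i these differences were 2.03, 0.76 and 3.27. The first set shares the SCR DMSO libraries and the second the SCR MPS1i libraries, and none of the 6 was tested.

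**Figure D2:**
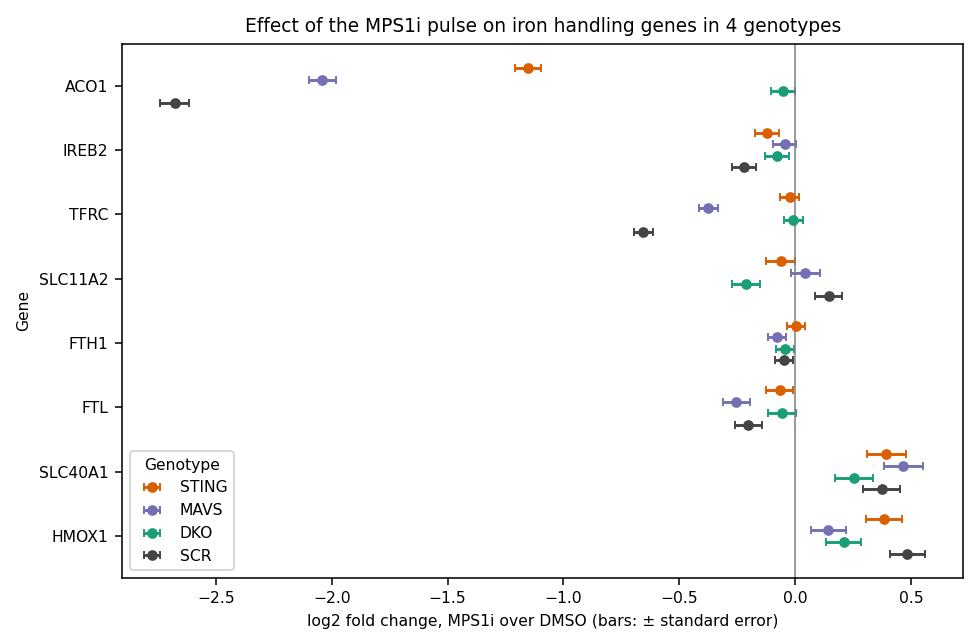
Log2 fold change of MPS1i over DMSO for the 8 genes in the STING, MAVS, DKO and SCR lines, with bars of 1 standard error on each side (2 libraries per group). ACO1 runs from -2.68 in SCR to -0.05 in DKO, TFRC lies at -0.66 in SCR and -0.37 in MAVS and near 0 in STING and DKO, and SLC40A1 lies right of 0 in all 4 lines.

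The gene next to ACO1 rose after MPS1i in 3 of the 4 lines. DDX58, which encodes the RNA sensor RIG-I and is itself an interferon target, lies at chr9:32455302-32526208 on the minus strand, so the genes end tail to tail, 532 bases apart. It was named for this position after its values were seen, so its values are a description with no test. DDX58 averaged 479 CPM after MPS1i and 43.4 CPM after DMSO in STING cells. In MAVS cells it averaged 722 CPM after MPS1i and 147 CPM after DMSO. It averaged 40.1 CPM after MPS1i and 35.3 CPM after DMSO in DKO cells, and 1276 CPM after MPS1i and 118 CPM after DMSO in SCR cells. The log2 fold changes of DDX58 were 3.46 ± 0.07 in STING, 2.29 ± 0.06 in MAVS, 0.18 ± 0.07 in DKO and 3.43 ± 0.06 in SCR cells. Against the change in SCR cells, that in STING cells differed by 0.03 ± 0.09. The difference from SCR was -1.14 ± 0.08 in MAVS and -3.25 ± 0.09 in DKO cells. The counting setting for strand is not given in the sources used here. The genes do not overlap in the deposited coordinates. Whether DDX58 has a part in the level of ACO1 was not tested.

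**Figure D3:**
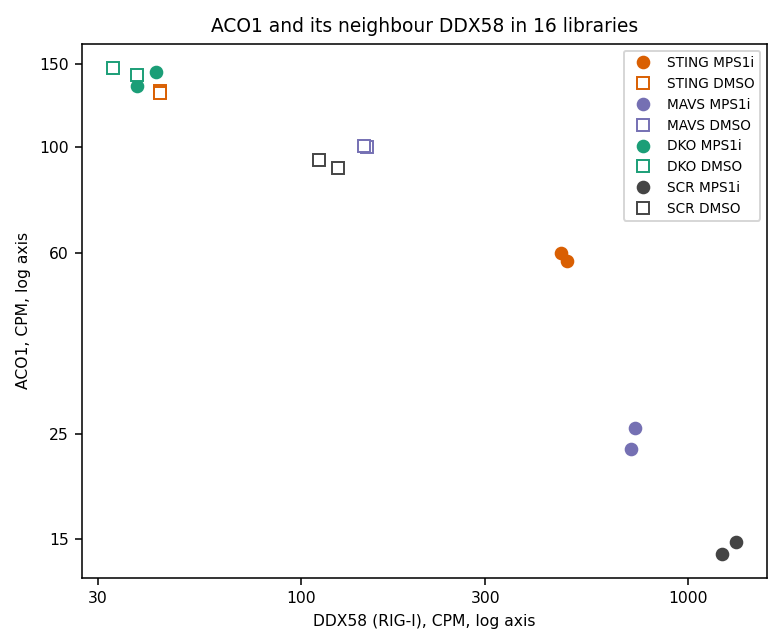
CPM of ACO1 against CPM of its neighbour DDX58 in the 16 libraries, both axes logarithmic, with MPS1i as filled circles and DMSO as open squares. The SCR MPS1i libraries lie at the lower right, all DKO libraries at the upper left, and the STING MPS1i libraries lie above the MAVS MPS1i libraries at a lower DDX58 level.

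Genes whose log2 CPM followed ACO1 most closely over the 16 libraries, among the 13882 tested genes that averaged 1 CPM or more, were CERK (Pearson r = 0.992), BTBD7 (0.991), RP11-156P1.3 (0.991), DLG1 (0.989), MAPKAP1 (0.987) and LONRF2 (0.985). These libraries form 8 groups of 2 that share a treatment or a line, so r mostly reflects the group means. CERK, which encodes ceramide kinase, averaged 27.7 CPM after MPS1i and 41.1 CPM after DMSO in STING cells and 11.3 CPM after MPS1i and 36.1 CPM after DMSO in SCR cells. Its log2 fold changes were -0.57 in STING, -1.07 in MAVS, 0.08 in DKO and -1.68 in SCR cells, each closer to 0 than that of ACO1 except in DKO. Among the iron genes, TFRC was nearest to ACO1, with r = 0.950. TTC3, at rank 10 of all candidates, still had r = 0.985, and the share of candidates at 0.950 or above was not computed.

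IREB2, which encodes IRP2 (chr15:78437431-78501453), moved far less than ACO1. Its level was 189.8 and 184.8 CPM after MPS1i and 200.3 and 206.9 CPM after DMSO in STING cells, and 193.3 and 190.6 CPM after MPS1i and 199.3 and 196.6 CPM after DMSO in MAVS cells. In DKO cells it was 184.5 and 190.4 CPM after MPS1i and 186.3 and 208.9 CPM after DMSO, and in SCR cells 180.1 and 186.5 CPM after MPS1i and 207.0 and 220.3 CPM after DMSO. Libraries of the 2 treatments overlapped in DKO cells and not in the other 3 lines, of which only SCR had a called effect. IREB2 fell in SCR cells, by 0.22 ± 0.05 on the log2 scale (edgeR adjusted p = 0.00066). The log2 fold changes were -0.12 ± 0.05 in STING (edgeR adjusted p = 0.082), -0.04 ± 0.05 in MAVS (0.55) and -0.08 ± 0.05 in DKO cells (0.35). The value in STING cells was called without SCR MPS1i replicate 2 (-0.14), MAVS DMSO replicate 1 (-0.14), DKO DMSO replicate 1 (-0.12) or DKO DMSO replicate 2 (-0.13). It was also called in 3 of 8 other alternatives, with upper quartile scaling (-0.13), at equal depth (-0.15) and with only the groups compared in the fit (-0.12). The value in DKO cells was called without DKO DMSO replicate 1 (-0.16). None of the 5 differences between lines in this effect passed the test. Of these, DKO against SCR was called without DKO DMSO replicate 2 (0.25) and with upper quartile scaling (0.19), and MAVS against SCR without DKO DMSO replicate 1 (0.19) or replicate 2 (0.18).

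TFRC encodes the transferrin receptor, the main door for iron into the cell (chr3:196027183-196082096), and the search found in it the 4 hairpins shown above. Its level was 636 and 613 CPM after MPS1i and 632 and 636 CPM after DMSO in STING cells. In MAVS cells it was 494 and 476 CPM after MPS1i and 620 and 636 CPM after DMSO. It was 653 and 645 CPM after MPS1i and 638 and 666 CPM after DMSO in DKO cells. SCR cells held 419 and 416 CPM after MPS1i and 666 and 649 CPM after DMSO. Treated and untreated libraries were apart in MAVS and SCR cells and overlapped in STING and DKO cells. TFRC fell by 0.66 ± 0.04 on the log2 scale in SCR cells (edgeR adjusted p = 9.1e-13) and by 0.37 ± 0.04 in MAVS cells (8.4e-08). The log2 fold changes were -0.02 ± 0.04 in STING (edgeR adjusted p = 0.73) and -0.01 ± 0.04 in DKO cells (0.95).

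These effects of MPS1i on TFRC differed between lines. Against the effect in SCR cells, the effect was 0.63 ± 0.06 higher on the log2 scale in STING (edgeR adjusted p of the interaction = 1.7e-08, 19.5% of all genes called), 0.28 ± 0.06 higher in MAVS (0.0024, 7.44% called) and 0.65 ± 0.06 higher in DKO cells (2.9e-09, 28.0% called). These 3 share the SCR libraries. The effect was also 0.37 ± 0.06 higher in DKO than in MAVS cells (edgeR adjusted p = 8.1e-05, 11.4% called), and the difference between DKO and STING cells was 0.02 ± 0.06 (0.94). TFRC thus fell in MAVS and SCR cells, while ACO1 was lower in STING cells too. No other member was called for STING against SCR, MAVS against SCR or DKO against MAVS, and SLC11A2 was the second member called for DKO against SCR. For DKO against STING, where edgeR called 4.72% of all genes, 0 of the other 7 genes were called by edgeR and 0 by DESeq2, and 0 had an unadjusted p under 0.05.

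SLC11A2 encodes DMT1, which moves ferrous iron across the endosome and the gut lining (chr12:50979401-51028566). Its level was 58.0 and 52.6 CPM after MPS1i and 57.5 and 57.8 CPM after DMSO in STING cells, and 64.7 and 60.5 CPM after MPS1i and 60.4 and 60.9 CPM after DMSO in MAVS cells. In DKO cells it was 49.5 and 51.6 CPM after MPS1i and 56.4 and 60.4 CPM after DMSO, and in SCR cells 66.0 and 67.1 CPM after MPS1i and 58.2 and 62.3 CPM after DMSO. The treatments were apart in DKO and SCR cells, in opposite directions, and overlapped in the other lines. The log2 fold change was 0.15 ± 0.06 in SCR cells (edgeR adjusted p = 0.040), a call that was lost in 14 of 16 fits that each left out 1 library (values from 0.08 to 0.17 over the 16) and in 4 of 8 other alternatives. It was -0.21 ± 0.06 in DKO cells (edgeR adjusted p = 0.020), a call lost without DKO DMSO replicate 2 (-0.16) or DKO MPS1i replicate 1 (-0.18) and with only the groups compared in the fit (-0.21, edgeR adjusted p = 0.082). The effect was lower in DKO than in SCR cells by -0.36 ± 0.08 (edgeR adjusted p of the interaction = 0.0021). This difference passed the test in every alternative run.

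FTH1 encodes the ferritin heavy chain, which oxidises iron for storage (chr11:61959718-61967634), and had the narrowest range of the 8 as a ratio of highest to lowest library. It stood between 4270 and 4861 CPM in all 16 libraries. The means were 4596 ± 83.1 CPM after MPS1i and 4580 ± 69.3 CPM after DMSO in STING cells, and 4486 ± 44.1 CPM after MPS1i and 4736 ± 91.0 CPM after DMSO in MAVS cells (SD, n = 2 each). In DKO cells they were 4580 ± 63.0 CPM after MPS1i and 4721 ± 198 CPM after DMSO, and in SCR cells 4272 ± 3.18 CPM after MPS1i and 4416 ± 77.6 CPM after DMSO. Libraries of the 2 treatments were apart in MAVS and SCR cells, though neither effect was called, and overlapped in STING and DKO cells. Its log2 fold changes ran from -0.08 to 0.01, and none was called (edgeR adjusted p = 0.94 in STING, 0.14 in MAVS, 0.54 in DKO and 0.34 in SCR). That in MAVS cells was called without DKO DMSO replicate 1 (-0.09) or replicate 2 (-0.10).

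FTL encodes the ferritin light chain, which helps form the iron core (chr19:48965309-48966879). Its level was 2951 and 3034 CPM after MPS1i and 3242 and 3022 CPM after DMSO in STING cells, and 2670 and 2708 CPM after MPS1i and 3398 and 3009 CPM after DMSO in MAVS cells. It was 3370 and 3561 CPM after MPS1i and 3837 and 3370 CPM after DMSO in DKO cells. In SCR cells it was 2560 and 2448 CPM after MPS1i and 2880 and 2878 CPM after DMSO. The treatments were apart in MAVS and SCR cells and overlapped in STING and DKO cells. FTL fell by 0.25 ± 0.06 on the log2 scale in MAVS cells (edgeR adjusted p = 0.0019) and by 0.20 ± 0.06 in SCR cells (0.0069), and the call in SCR cells was lost without SCR MPS1i replicate 2 (-0.18). In STING and DKO cells the log2 fold changes were -0.07 ± 0.06 (edgeR adjusted p = 0.44) and -0.06 ± 0.06 (0.60), and no difference between lines in this effect was called. Ferritin pseudogenes may share reads with these genes. The 25 rows named as FTH1 pseudogenes held between 0.319% and 0.511% of the counts of FTH1 in a library, and the 16 of FTL between 0.0515% and 0.0956% of those of FTL.

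SLC40A1, the gene of ferroportin, the only known iron exporter of mammalian cells (chr2:189560590-189583758), rose in all 4 lines. Its level was 26.7 and 27.6 CPM after MPS1i and 18.9 and 22.6 CPM after DMSO in STING cells, and 27.5 and 25.5 CPM after MPS1i and 19.4 and 18.8 CPM after DMSO in MAVS cells. In DKO cells it was 29.8 and 32.2 CPM after MPS1i and 24.7 and 26.98 CPM after DMSO, and in SCR cells 24.9 and 26.4 CPM after MPS1i and 19.7 and 19.9 CPM after DMSO. Both MPS1i libraries lay above both DMSO libraries in each line. The log2 fold changes were 0.39 ± 0.09 in STING (edgeR adjusted p = 0.00098), 0.47 ± 0.08 in MAVS (9.8e-05), 0.25 ± 0.08 in DKO (0.034) and 0.38 ± 0.08 in SCR cells (0.00032). The call in STING cells was lost without STING DMSO replicate 1 (0.26). That in DKO cells was lost without DKO DMSO replicate 1 (0.19), DKO MPS1i replicate 1 (0.31) or DKO MPS1i replicate 2 (0.19), with only the DKO groups in the fit (0.26), and by DESeq2 (0.26, adjusted p = 0.054). Differences between lines in this effect ran from -0.21 ± 0.12 (DKO against MAVS) to 0.09 ± 0.12 (MAVS against SCR), none of them called.

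HMOX1 encodes heme oxygenase 1, which opens the heme ring and frees its iron and is a classic stress gene (chr22:35380361-35394214). Its level was 98.1 and 112.5 CPM after MPS1i and 81.0 and 80.6 CPM after DMSO in STING cells, and 102.0 and 109.8 CPM after MPS1i and 101.0 and 90.4 CPM after DMSO in MAVS cells. It was 126.1 and 129.8 CPM after MPS1i and 119.2 and 102.2 CPM after DMSO in DKO cells, and 102.6 and 101.0 CPM after MPS1i and 76.3 and 68.9 CPM after DMSO in SCR cells. Both MPS1i libraries were the higher ones in each line, though the effect was called only in SCR and STING cells. HMOX1 rose in SCR cells, by 0.49 ± 0.08 on the log2 scale (edgeR adjusted p = 3e-05), and in STING cells, by 0.38 ± 0.08 (0.0011). The log2 fold changes were 0.14 ± 0.08 in MAVS (edgeR adjusted p = 0.17) and 0.21 ± 0.08 in DKO cells (0.074), and that in DKO cells was called without DKO DMSO replicate 1 (0.32) and in 3 of 8 other alternatives. These were DESeq2 (0.22), no filter on low counts (0.20) and equal depth (0.21). The differences from the effect in SCR cells were -0.34 ± 0.11 for MAVS (edgeR adjusted p = 0.068) and -0.27 ± 0.11 for DKO (0.067). The first was called in 4 of 8 alternatives and without STING MPS1i replicate 1 or 2, MAVS DMSO replicate 2 or DKO DMSO replicate 1 or 2 (-0.42 to -0.33). The second was called in 2 of 8 and without STING MPS1i replicate 1 or 2 or DKO DMSO replicate 2 (-0.37 to -0.27).

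Without the drug, most of the calls among these genes were in DKO cells, which also had the most calls over all genes. Against SCR under DMSO, DKO cells were higher in 3 of the other 7 genes and lower in 0, where 31.1% of all genes were called, 15.8% higher and 15.3% lower. HMOX1 was higher by 0.60 ± 0.08 on the log2 scale (edgeR adjusted p = 6.6e-06), SLC40A1 by 0.39 ± 0.08 (0.00057) and FTL by 0.32 ± 0.06 (0.00021). In MAVS cells HMOX1 was higher by 0.40 ± 0.08 (edgeR adjusted p = 0.0041), the only call among the 7 (6.56% of all genes called, 3.98% higher and 2.57% lower), and it was lost without SCR DMSO replicate 2 (0.32) or MAVS DMSO replicate 1 (0.32). In STING cells 0 of the 7 were called by edgeR and 0 by DESeq2, with 0 at an unadjusted p under 0.05 (10.2% of all genes called, 4.70% higher and 5.47% lower).

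After MPS1i, more of these genes were called in DKO and STING cells, as were more of all genes. Against SCR after MPS1i, DKO cells were higher in 5 of the other 7 genes and lower in 1, where 45.1% of all genes were called, 22.6% higher and 22.4% lower. STING cells were higher in 3 and lower in 1 (33.1% called, 15.8% higher and 17.3% lower), and MAVS cells higher in 1 and lower in 0 (15.9% called, 7.46% higher and 8.47% lower). TFRC was higher by 0.58 ± 0.04 in STING (edgeR adjusted p = 3.2e-11), 0.22 ± 0.04 in MAVS (0.00050) and 0.64 ± 0.04 in DKO cells (2.1e-12). FTL was higher by 0.26 ± 0.06 in STING (edgeR adjusted p = 0.0017) and 0.47 ± 0.06 in DKO cells (1.1e-06). SLC11A2 was lower, at -0.27 ± 0.06 in STING (edgeR adjusted p = 0.00095) and -0.40 ± 0.06 in DKO cells (5.2e-06), and the first call was lost without STING MPS1i replicate 2 (-0.20). In DKO cells HMOX1 was higher by 0.33 ± 0.08 (edgeR adjusted p = 0.0015) and SLC40A1 by 0.27 ± 0.08 (0.0078), the second lost without SCR MPS1i replicate 1 (0.23) or DKO MPS1i replicate 2 (0.22). FTH1 was called at 0.11 ± 0.04 in STING (edgeR adjusted p = 0.046) and 0.10 ± 0.04 in DKO cells (0.045). Each of these FTH1 calls was lost without any 1 of the 4 libraries compared, with values from 0.09 to 0.13, the STING call also in 3 of 8 other alternatives and the DKO call in 1 of 8.

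Beyond the 8 genes, 7 lists of iron, heme and citrate genes were read in the same fits. The lists were chosen with earlier results of these data known, so counts from them are a description. Each named gene is among the 4 of its list with the smallest unadjusted p over the 4 MPS1i effects. The values of these named genes, and differences between lines in them, are therefore a description with no test. In the uptake list of 13 tested genes, 1 rose and 1 fell in STING, 1 and 3 in MAVS, 0 and 1 in DKO and 3 and 3 in SCR cells. The median log2 fold changes of the list were 0.16 in STING, 0.03 in MAVS, -0.01 in DKO and 0.22 in SCR cells. Of all genes tested, 15.5% rose and 13.9% fell in STING cells, and 17.1% and 16.3% in MAVS cells. In DKO cells 6.53% of all genes rose and 8.22% fell, and in SCR cells 26.0% and 24.0%. SLC39A14, a transporter for iron not bound to transferrin, fell in all 4 lines, by 0.31 ± 0.05 in STING, 0.41 ± 0.05 in MAVS, 0.15 ± 0.05 in DKO and 0.65 ± 0.05 on the log2 scale in SCR cells. Its relative SLC39A8 rose in MAVS and SCR cells by 0.30 ± 0.07 and 0.49 ± 0.07. The ferric reductase gene CYBRD1 fell by 0.30 ± 0.05 in each of those lines.

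Of 10 tested genes for iron storage, chaperoning and ferritin turnover, 3 rose and 3 fell in STING, 2 and 1 in MAVS, 1 and 3 in DKO and 2 and 3 in SCR cells. Their median log2 fold changes were -0.08 in STING, 0.03 in MAVS, 0.02 in DKO and -0.02 in SCR cells. The shares of all genes that rose and fell were 15.5% and 13.9% in STING and 17.1% and 16.3% in MAVS cells. They were 6.53% and 8.22% in DKO and 26.0% and 24.0% in SCR cells. SLC25A28, which encodes mitoferrin 2 and brings iron into mitochondria, averaged 21.7 CPM after MPS1i and 8.11 CPM after DMSO in STING, and 20.3 CPM after MPS1i and 8.54 CPM after DMSO in MAVS cells. It averaged 10.3 CPM after MPS1i and 8.98 CPM after DMSO in DKO cells, and 34.5 CPM after MPS1i and 8.91 CPM after DMSO in SCR cells. It rose by 1.43 ± 0.15 on the log2 scale in STING, 1.23 ± 0.14 in MAVS and 1.95 ± 0.13 in SCR cells, with 0.22 ± 0.15 in DKO cells. Its effect in DKO cells was lower than in each of the other 3 lines, by -1.74 ± 0.20 against SCR, as a description. The other mitoferrin gene, SLC25A37, rose by 0.43 ± 0.05 in DKO and 0.25 ± 0.05 in STING cells and fell by 0.13 ± 0.05 in SCR cells. PCBP2, an iron chaperone that loads ferritin, fell in all 4 lines, by 0.15 ± 0.04 in STING to 0.49 ± 0.04 in SCR cells.

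EPAS1 moved in opposite directions in the lines. It encodes HIF-2α, an oxygen-sensitive transcription factor of iron and red cell genes, and averaged 489 CPM after MPS1i and 427 CPM after DMSO in STING, and 365 CPM after MPS1i and 436 CPM after DMSO in MAVS cells. In DKO cells it averaged 533 CPM after MPS1i and 403 CPM after DMSO, and in SCR cells 260 CPM after MPS1i and 423 CPM after DMSO. EPAS1 rose by 0.20 ± 0.04 on the log2 scale in STING and 0.40 ± 0.04 in DKO cells and fell by 0.26 ± 0.04 in MAVS and 0.70 ± 0.04 in SCR cells. As a description, the effect was higher by 0.90 ± 0.06 in STING and 1.11 ± 0.06 in DKO than in SCR cells. It was higher by 0.66 ± 0.06 in DKO than in MAVS cells, while DKO against STING gave 0.21 ± 0.06. FBXL5, the iron sensor that marks IRP2 for degradation, rose by 0.20 ± 0.07 in STING, 0.19 ± 0.07 in MAVS and 0.46 ± 0.07 in SCR cells, with 0.06 ± 0.07 in DKO cells. In its list of 14 regulators, 4 rose and 1 fell in STING, 4 and 2 in MAVS, 2 and 1 in DKO and 6 and 3 in SCR cells. The list had medians of 0.14 in STING, 0.04 in MAVS, 0.05 in DKO and 0.12 in SCR cells. Among all genes, 15.5% rose and 13.9% fell in STING and 17.1% and 16.3% in MAVS cells. For DKO these shares were 6.53% and 8.22%, and for SCR 26.0% and 24.0%.

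In the list of iron export and hepcidin genes, 3 of 12 tested rose and 1 fell in STING, 5 and 2 in MAVS, 2 and 1 in DKO and 6 and 4 in SCR cells. Here the medians were 0.04 in STING, -0.06 in MAVS, -0.06 in DKO and 0.08 in SCR cells. Over all genes, 15.5% rose and 13.9% fell in STING and 17.1% and 16.3% in MAVS cells. The same shares were 6.53% and 8.22% in DKO and 26.0% and 24.0% in SCR cells. BMP2, a ligand that turns on hepcidin in liver, rose in all 4 lines, from 0.41 ± 0.09 on the log2 scale in DKO to 0.79 ± 0.09 in SCR cells. CP, the gene of ceruloplasmin, which oxidises exported iron, rose by 0.34 ± 0.06 in STING, 0.30 ± 0.06 in MAVS and 0.44 ± 0.06 in SCR cells. BMPR2 averaged 247 CPM after MPS1i and 168 CPM after DMSO in SCR cells, but 169 and 181 CPM in DKO cells. SMAD5 averaged less after MPS1i than after DMSO in each line, at 125 and 156 CPM in SCR and 147 and 151 CPM in DKO cells.

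**Figure D4:**
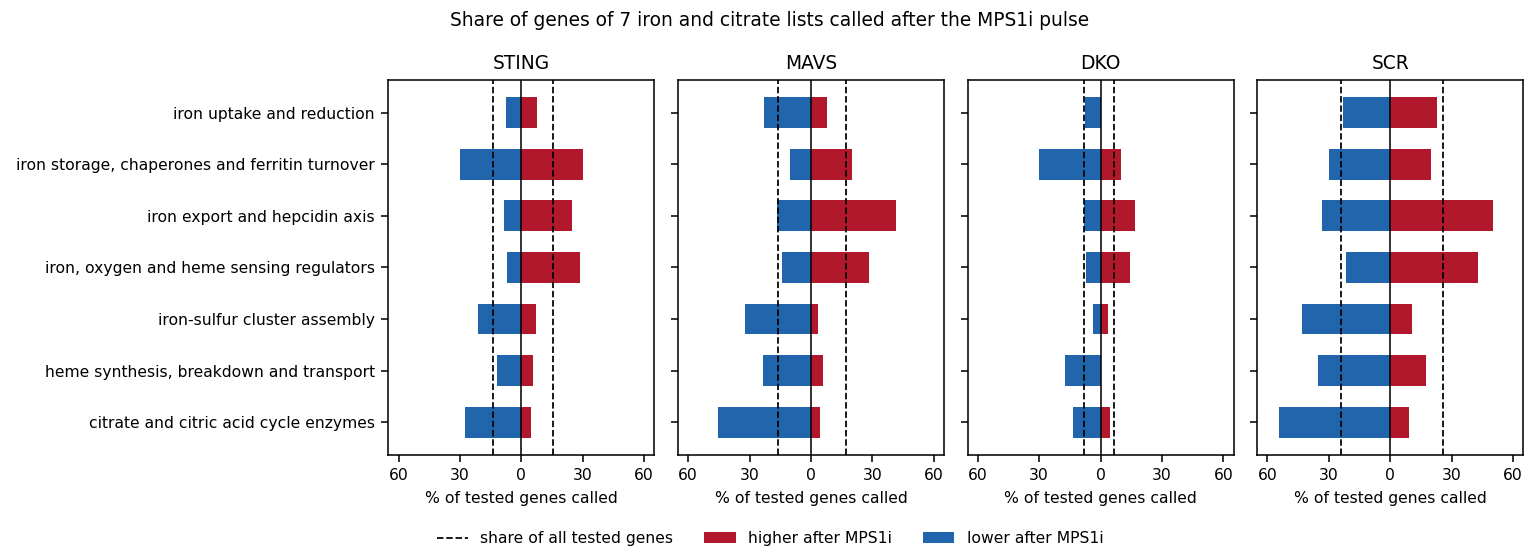
Share of the tested genes of 7 iron, heme and citrate lists called higher (right, red) or lower (left, blue) after MPS1i in each line, with dashed lines at the share of all 17950 tested genes called in that direction. In SCR cells 12 of 22 citrate and citric acid cycle genes and 12 of 28 iron-sulfur assembly genes fell, against 24.0% of all genes.

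Transcripts of the citrate pathway were lower in part. Of 22 genes for citrate and citric acid cycle enzymes, 6 fell and 1 rose in STING, 10 and 1 in MAVS, 3 and 1 in DKO and 12 and 2 in SCR cells, where 13.9%, 16.3%, 8.22% and 24.0% of all genes fell. The median log2 fold changes were -0.03, -0.17, -0.04 and -0.16 in those 4 lines. IDH1, which uses the isocitrate that cytosolic aconitase makes, averaged 503 CPM after MPS1i and 675 CPM after DMSO in STING, and 472 CPM after MPS1i and 723 CPM after DMSO in MAVS cells. It averaged 444 CPM after MPS1i and 522 CPM after DMSO in DKO cells, and 497 CPM after MPS1i and 811 CPM after DMSO in SCR cells. IDH1 fell in all 4 lines, by 0.43 ± 0.04 in STING, 0.62 ± 0.04 in MAVS, 0.23 ± 0.04 in DKO and 0.70 ± 0.04 on the log2 scale in SCR cells. OGDH rose in all 4 lines, by 0.22 ± 0.06 to 0.44 ± 0.05.

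Of 28 genes for iron-sulfur cluster assembly, 6 fell and 2 rose in STING, 9 and 1 in MAVS, 1 and 1 in DKO and 12 and 3 in SCR cells. The medians were -0.08 in STING, -0.11 in MAVS, -0.05 in DKO and -0.18 in SCR cells. For this list and the heme list below, the shares of all genes that fell and rose apply. They were 13.9% and 15.5% in STING, 16.3% and 17.1% in MAVS, 8.22% and 6.53% in DKO and 24.0% and 26.0% in SCR cells. HSPA9, the chaperone that hands clusters on, fell by 0.57 ± 0.05 on the log2 scale in SCR cells and by 0.33 ± 0.05 in MAVS cells, while its partner HSCB rose by 0.88 ± 0.10 in SCR cells. Of 17 genes for heme synthesis, breakdown and transport, 2 fell and 1 rose in STING, 4 and 1 in MAVS, 3 and 0 in DKO and 6 and 3 in SCR cells. This list had medians of 0.04 in STING, -0.17 in MAVS, -0.04 in DKO and -0.06 in SCR cells. FECH, which puts iron into heme as the last step of synthesis, averaged 126 CPM after MPS1i and 182 CPM after DMSO in STING, and 105 CPM after MPS1i and 184 CPM after DMSO in MAVS cells. In DKO cells it averaged 138 CPM after MPS1i and 182 CPM after DMSO, and in SCR cells 90.0 CPM after MPS1i and 195 CPM after DMSO. FECH fell in every line, by 0.53 ± 0.04 in STING, 0.81 ± 0.04 in MAVS, 0.40 ± 0.04 in DKO and 1.11 ± 0.04 on the log2 scale in SCR cells. ALAS1, which starts the same pathway, rose by 0.14 ± 0.05 in STING, 0.16 ± 0.05 in MAVS and 0.27 ± 0.05 in SCR cells.

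Other programs, read from lists that were also chosen with earlier results known, moved in the same libraries. All 24 interferon response genes rose in STING, MAVS and SCR cells and 9 of 24 in DKO cells, with median log2 fold changes of 4.34 in STING, 2.69 in MAVS, 0.60 in DKO and 3.87 in SCR cells. After MPS1i their median log2 difference from SCR cells was -1.46 in STING, -0.67 in MAVS and -6.57 in DKO cells. The 20 mitosis genes fell in all 4 lines, and of 18 amino acid targets of ATF4 18 fell in STING, 17 in MAVS, 14 in DKO and 18 in SCR cells. Of 20 NRF2 targets, a set that responds to oxidants and to which HMOX1 is often added, 5 fell and 2 rose in STING, 10 and 1 in MAVS, 4 and 0 in DKO and 9 and 4 in SCR cells. Across all genes, 13.9% fell and 15.5% rose in STING and 16.3% and 17.1% in MAVS cells. DKO cells had 8.22% lower and 6.53% higher, and SCR cells 24.0% and 26.0%. The part these programs have in the results for iron genes was not tested.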

How the data were processed

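The authors deposited whole-number counts of reads per gene, 1 column per library, without normalization. The submitters' processing notes name the trimmers cutadapt, Trim Galore and Trimmomatic, the aligner STAR, the counter featureCounts and the build GRCh38/hg38, with no versions. Libraries were made from poly(A) RNA with a stranded kit, per the labels' protocols. The strand and multimapping settings are not given in the sources used here. Genes were filtered with filterByExpr (minimum count 10, minimum total 15), which left 17950 of 60612 genes. edgeR 4.0.16 in R 4.3.3 gave TMM scaling, robust dispersions and two-sided quasi-likelihood F-tests on 1 mean per group (16 libraries, 8 residual degrees of freedom, 15 contrasts), with Benjamini-Hochberg adjustment per contrast. CPM use TMM-scaled totals. The standard error is the absolute log2 fold change over the square root of F. DESeq2 1.42.0 was an alternative. The pipeline was tested on simulated data.

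The members and gene lists were chosen with earlier results of these data known. Named genes are the members, up to 4 genes per iron list and 2 per context list with the smallest unadjusted p over the 4 MPS1i effects, and the 6 genes most correlated with ACO1. DDX58 was named after its values were seen. Lengths and hairpin sequences come from GENCODE 29 (GRCh38). Residuals of same-numbered replicates correlated between -0.05 and 0.09 over 28 group pairs (median 0.01), so replicates were not paired.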

Additional observations from a re-analysis of the deposited data

Results flagged for a closer look

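Each of these results was singled out because the effect of MPS1i differed between 2 lines by an interaction test (edgeR's quasi-likelihood test, adjusted over 17950 genes). For ACO1, the effect on the log2 scale was -0.05 in DKO and -1.15 in STING cells, a difference of 1.10 (edgeR adjusted p = 5.2e-11). Both DKO libraries lay above both STING libraries after MPS1i and also after DMSO.

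For TFRC, the effect was 0.63 higher in STING than in SCR cells (edgeR adjusted p = 1.7e-08), 0.28 higher in MAVS than in SCR cells (0.0024), 0.65 higher in DKO than in SCR cells (2.9e-09) and 0.37 higher in DKO than in MAVS cells (8.1e-05). The first 3 share the SCR libraries. For SLC11A2, the effect was -0.21 in DKO and 0.15 in SCR cells, a difference of -0.36 (edgeR adjusted p = 0.0021). Single-library outliers were not tested, since groups hold 2 libraries.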

How the results depend on the processing

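Results were recomputed under 8 alternatives and without each of the 16 libraries in turn. The 3 tested ACO1 results kept their direction and their side of the threshold in all of them, at -1.19 to -1.13 in STING, -0.10 to -0.01 in DKO and 1.05 to 1.15 for DKO against STING. Of 33 calls among the other 7 genes in 15 contrasts, 23 held in every fit. No called value changed sign; 50 values called in neither fit did, all between -0.11 and 0.07. Counts of the other 7 genes called moved, and the cause was not tested. For MPS1i in SCR and for DKO against SCR after MPS1i, the main count of 6 fell to 5 in some alternatives. Both also fell in some fits that left out 1 library. Over the 8 alternatives, counts ran from 2 to 3 for MPS1i in STING and 3 to 4 for DKO against SCR under DMSO. They ran from 3 to 4 for STING against SCR after MPS1i. The moves listed next are only those that were larger relative to the main count. With only the groups compared in the fit, 0 in place of 2 were called for MPS1i in DKO, 1 in place of 0 for STING against SCR under DMSO, and 2 in place of 1 for the MAVS minus SCR effect. Without a filter on low counts, 2 in place of 1 were called for MAVS against SCR under DMSO, for the MAVS minus SCR effect and for the DKO minus MAVS effect, and 4 in place of 2 for DKO minus SCR. At equal depth, 2 in place of 1 were called for STING minus SCR, MAVS minus SCR and DKO minus MAVS. DESeq2 gave 2 for MAVS minus SCR, and a mean of at least 1 CPM gave 2 for DKO minus MAVS. Leaving out 1 library, the counts ran from 1 to 3 for MPS1i in STING, 0 to 3 in DKO, 0 to 2 for MAVS against SCR under DMSO, 2 to 4 for STING against SCR after MPS1i, 1 to 2 for STING minus SCR, 1 to 3 for MAVS minus SCR, 2 to 4 for DKO minus SCR and 1 to 3 for DKO minus MAVS.

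The replicate number as a block left every such count as it was, 6 for MPS1i in SCR and 2 in DKO among them, and gave ACO1 -1.15 in STING. Over all genes, leaving out a library moved calls by over 1.5 times in 7 contrasts: for MPS1i in STING 3364 in place of 5269, in DKO 1433 and 1682 in place of 2648 (1629 with only the groups compared), for STING against SCR under DMSO 897 to 1015 in place of 1826, for MAVS against SCR 339 to 744 in place of 1177 under DMSO and 1794 to 1855 in place of 2859 after MPS1i, for MAVS minus SCR 851 in place of 1336, and for DKO minus STING 535 to 564 in place of 848. Of values not called, FTH1 was called at 0.12 and IREB2 at -0.21 for DKO against SCR under DMSO without DKO DMSO replicate 1 and replicate 2 in that order, FTH1 also at 0.12 with upper quartile scaling and IREB2 at -0.17 without SCR DMSO replicate 1, SLC11A2 at -0.29 for DKO minus MAVS without DKO DMSO replicate 1 and at -0.28 for STING minus SCR without STING MPS1i replicate 1. FTL was called at 0.25 (MAVS against SCR under DMSO) and 0.29 (DKO minus MAVS) without MAVS DMSO replicate 2, and at 0.30 (DKO minus MAVS) and 0.26 (DKO minus SCR) without DKO DMSO replicate 1. With 2 libraries a group, a small effect that was not called may still exist, and transcript levels are not a measure of iron or protein.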
